A study of Mus musculus with 62 samples.

Results

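Regions of the mouse genome that carried H3K27ac in soleus and in none of EDL, Quad or Dia numbered 3158 of the 51588 regions formed from the peak lists of the 4 muscles. The lists were merged wherever peaks overlapped or abutted, and a merged region was kept where at least 1 bp belonged to a soleus (Sol) peak and none to a peak of extensor digitorum longus (EDL), quadriceps (Quad) or diaphragm (Dia). Each of the 3158 regions consisted of exactly 1 of the 34173 Sol peaks. By the same rule 3144 regions belonged to EDL alone, 3255 to Dia alone and 6819 to Quad alone, 1072 were shared by Sol and Dia only, and 19318 were present in all 4 muscles. The regions were thus chosen by the H3K27ac peak calls of the 4 muscles, and the H3K27ac values of the Sol libraries below are a description without a test.

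Chromatin immunoprecipitation sequencing (ChIP-seq) of H3K27ac and H3K4me2 was carried out in duplicate in each muscle of sedentary wild type male C57BL/6 mice (C57BL/6J in the study's methods), bought at 7 to 8 weeks of age. Each Sol, EDL or Dia histone sample pooled muscle from 3 animals, whereas each Quad sample came from 1 animal. Quad of sedentary (Sed) mice and of mice with 4 weeks of voluntary wheel running (Ex, also wild type, taken hours after the last bout) was compared, as was Quad of sedentary PGC1a Tg(+) mice (mTg), which express Ppargc1a from the muscle creatine kinase promoter, and of sedentary wild-type littermates (Wt). MED1 (1 library in each muscle), NFAT (1 library each in Sol and Quad) and open chromatin of control Quad (ATAC-seq, 3 libraries) were also mapped in wild type C57BL/6 animals. The Sol factor libraries pooled 10 animals and the Quad factor libraries 5. The 8 H3K27ac libraries of the 4 muscles held 15271950 to 24195147 tags, the Sol pair 20277170 and 19783028, and the Sol input 18901362. The tag totals in the headers of the second Dia H3K27ac and Dia H3K4me2 libraries stand interchanged in the study's own list of read numbers, so an exchange of these libraries could not be settled from the totals. Pearson's r between replicates across peaks was 0.98 in each of the 4 H3K27ac lists and 0.99 in each of the 4 H3K4me2 lists, Dia included. Without the Dia list in the rule 4372 regions belonged to Sol alone, of which 34.8% had Sol H3K4me2, against 32.2% with it. Whole muscle holds fibers, vessels, nerve, connective tissue and blood cells, so more cells of a kind and more acetylation per cell cannot be told apart.

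H3K27ac is placed on histones next to active enhancers and promoters, and H3K4me2 marks a broader set of enhancers and promoters, including many that are poised. Soleus is a postural muscle of the hind limb, rich in slow, oxidative fibers that contract with the beta-myosin heavy chain encoded by Myh7, whereas EDL and Quad of the mouse consist mostly of fast fibers. Mediator, of which MED1 is a subunit, bridges transcription factors at enhancers and RNA polymerase II, and NFAT factors carry calcium signals from active motor nerves to the slow fiber program. The label was set beside peak counts of genes that define slow and fast fibers. Myh7 was the nearest gene of 3 Sol and 3 Dia H3K27ac peaks and of 0 in EDL and Quad, while Myh4, the fastest myosin heavy chain, had 1 peak in Sol, 3 in EDL, 2 in Quad and 1 in Dia. These counts do not tell Sol from Dia. Slow troponin and myosin light chain genes were mixed. In the order Sol, EDL, Quad and Dia, Tnnt1 had 2, 0, 1 and 1 peaks, Tnnc1 1, 0, 0 and 1, and Myl2 3, 1, 1 and 2. Tnni1 and Myl3 had 1 in each muscle.

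The sequences of 5 regions that the results below turn on are shown first. Each is the central 300 bases of a region on the plus strand of GRCm38 (mm10), from the RefSeq assembly GRCm38.p6. The first 2 lie near genes of slow fibers, the third held a MED1 peak of Sol, and the last 2 lie within regions whose acetylation was higher in mTg than in Wt Quad. Capitals mark 6-letter matches, on either strand, to the NFAT core TGGAAA, the nuclear receptor half-site AGGTCA, the E-box CAGCTG and the TEAD core GGAATG, and on the other strand these read TTTCCA for NFAT, TGACCT for the half-site and CATTCC for TEAD.
Myh7b, chr2:155606177-155606476: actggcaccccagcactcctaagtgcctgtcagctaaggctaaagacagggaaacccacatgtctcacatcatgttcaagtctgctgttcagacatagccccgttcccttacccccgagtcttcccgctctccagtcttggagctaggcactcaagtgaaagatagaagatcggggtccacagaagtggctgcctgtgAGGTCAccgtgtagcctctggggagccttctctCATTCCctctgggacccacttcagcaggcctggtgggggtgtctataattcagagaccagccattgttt
Myoz2, chr3:123081716-123082015: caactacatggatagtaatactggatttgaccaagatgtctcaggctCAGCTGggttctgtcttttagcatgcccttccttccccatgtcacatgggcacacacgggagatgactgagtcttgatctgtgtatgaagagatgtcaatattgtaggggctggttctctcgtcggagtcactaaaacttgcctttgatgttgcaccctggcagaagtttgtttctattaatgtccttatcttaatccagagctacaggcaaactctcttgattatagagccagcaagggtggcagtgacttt
Pdlim5, chr3:142322844-142323143: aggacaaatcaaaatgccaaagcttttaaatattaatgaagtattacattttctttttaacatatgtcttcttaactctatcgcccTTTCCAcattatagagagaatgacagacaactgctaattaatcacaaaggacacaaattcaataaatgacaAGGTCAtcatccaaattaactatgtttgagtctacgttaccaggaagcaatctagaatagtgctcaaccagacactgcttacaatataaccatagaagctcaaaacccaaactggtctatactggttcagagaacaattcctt
D930015E06Rik, chr3:83976145-83976444: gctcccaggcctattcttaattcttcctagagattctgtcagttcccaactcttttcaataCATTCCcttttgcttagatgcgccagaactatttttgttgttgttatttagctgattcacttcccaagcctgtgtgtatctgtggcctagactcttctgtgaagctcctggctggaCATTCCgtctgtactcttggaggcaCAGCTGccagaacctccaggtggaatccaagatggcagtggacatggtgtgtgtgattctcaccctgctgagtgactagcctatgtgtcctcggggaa
Vwa8, chr14:78852679-78852978: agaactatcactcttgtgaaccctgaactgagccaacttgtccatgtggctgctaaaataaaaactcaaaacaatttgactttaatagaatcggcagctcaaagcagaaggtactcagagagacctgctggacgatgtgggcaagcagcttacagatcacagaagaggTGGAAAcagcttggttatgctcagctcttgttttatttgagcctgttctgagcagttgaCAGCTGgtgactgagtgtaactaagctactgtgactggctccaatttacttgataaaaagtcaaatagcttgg
The Myh7b window held 1 half-site and 1 TEAD core, the Myoz2 window 1 E-box and the Pdlim5 window 1 NFAT core and 1 half-site. The D930015E06Rik window held 2 TEAD cores and 1 E-box, and the Vwa8 window 1 NFAT core and 1 E-box. GC content ranged from 33.7% in the Pdlim5 window to 54.7% in the Myh7b window. A match describes the letters only.

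Regions of Sol alone were narrow and weakly acetylated. The median width was 960 bp, close to the 1029 bp of EDL alone and the 1084 bp of Dia alone, and well below the 3333 bp of regions present in all 4 muscles. A level, the log2 normalized tag count of a library over a whole peak, ranged from 2.08 to 8.59 in Sol replicate 1 with a median of 4.85, and from 2.30 to 8.57 in replicate 2 with a median of 4.91. The same regions had a median level of 3.04 in the Sol input, and at all 3158 both H3K27ac libraries were above that input. The caller had required enrichment over input across the replicates together. The median over all 34173 Sol peaks was 6.83, nearly 2 log2 units higher than the 4.87 of the regions of Sol alone.

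Of the 3158 regions, 2577 (81.6%) lay in the lowest quartile of the Sol list by level, 66 (2.09%) above its median and 6 in its highest quartile. The median percentile in that list was 10.1 by level and 10.5 by level per kb of width. Enrichment over input, as the peak caller gave it, had a median of 2.25 on the log2 scale, against 2.42 for the other Sol peaks. The caller's adjusted p, for which 0.05 was the limit of the list, was 0.01 or more at 2413 regions (76.4%) and under 0.001 at 170. The same share at 0.01 or more over all Sol peaks was 23.3%. Replicates stood further apart than over all Sol peaks. They differed by more than 1 log2 unit at 29 regions, and the median absolute difference was 0.25, against 0.19 over all Sol peaks. Across regions, which are not independent replicates, Pearson's r between the libraries was 0.93 and Spearman's rho 0.91. Over all Sol peaks both were 0.98. The caller used both replicates, so the choice of peaks favoured agreement.

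**Figure D1:**
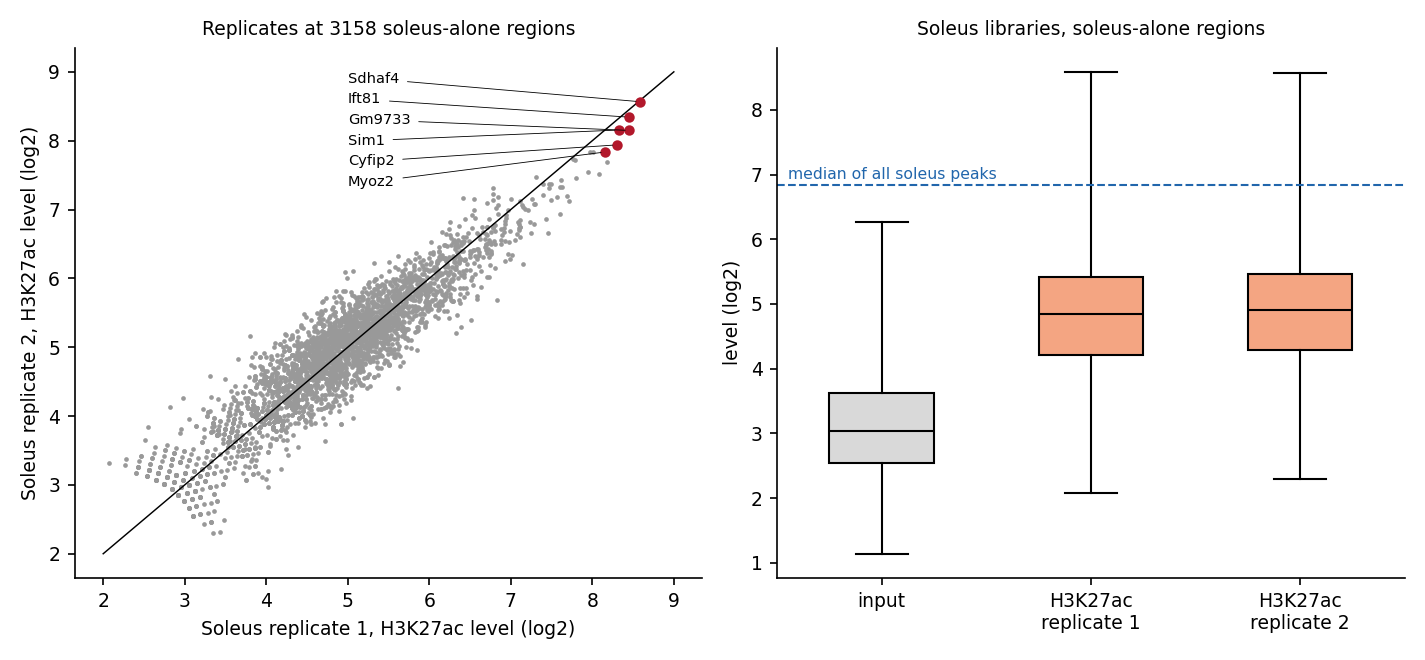
Left, H3K27ac level (log2) of each of the 3158 regions of soleus alone in replicate 1 (x axis) and replicate 2 (y axis), with the line of equality and the 6 highest regions labelled by nearest gene. Right, boxes (quartiles, whiskers to the lowest and highest value) of the input and of both H3K27ac libraries at these regions, with medians of 3.04, 4.85 and 4.91, all below the dashed median of all soleus peaks at 6.83.

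The regions lay away from promoters. By the authors' annotation, 1657 (52.5%) were intronic, 1279 (40.5%) intergenic, 58 exonic, 40 at transcription termination sites, 35 in 3' UTRs, 17 in noncoding exons and 5 in 5' UTRs. Promoters, counted from 1 kb upstream to 100 bp downstream of a start site, held 67 (2.12%, 95% Wilson interval 1.67 to 2.69), against 13.4% of all Sol peaks and 14.1% of all merged regions. The median distance to the nearest start site was 28364.5 bp, 2381 regions were more than 10 kb and 483 more than 100 kb away. They were nearest to 2397 genes, of which 1853 had a single region.

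Most regions lay more than 1 kb from any peak of another muscle. The nearest H3K27ac peak of EDL, Quad or Dia was within 1 kb of 536 regions (17.0%), at a median distance of 4667.5 bp over all regions, more than 10 kb from 1026 and more than 100 kb from 91. The closest regions inside the rule were an intronic region of Psmb7 (levels 4.38 and 4.28), 8 bp from an EDL peak, an intergenic region near 2210417A02Rik (4.50 and 4.98), 9 bp from an EDL peak, and one near 4930546K05Rik (5.64 and 5.71), 12 bp from a Quad peak. Just outside the rule, a Sol peak in Bphl abutted an EDL peak with 0 bp shared, a Sol peak in Runx1 shared 7 bp with a Dia peak, and a Sol peak in Slc6a6 shared 10 bp with a Dia peak. In replicate 1 these outer peaks measured 3.72 at Bphl, 4.78 at Runx1 and 5.11 at Slc6a6, so the lowest of the 6 was just outside.

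H3K4me2, which the rule did not use, was called at a minority of the regions, and more often in Sol than in any other muscle. A Sol H3K4me2 peak overlapped 1017 of the 3158 regions (32.2%, interval 30.6 to 33.9), below the 48.6% of all merged regions. The share was 22.1% for regions of EDL alone and 18.2% for those of Dia alone. EDL H3K4me2 was present at 660 of the Sol regions (20.9%, against 55.8% of all merged regions), Quad H3K4me2 at 563 (17.8%, against 56%) and Dia H3K4me2 at 465 (14.7%, against 44.6%). The EDL and Quad H3K4me2 lists were longer than the Sol list, with 42501 and 43525 peaks against 35696, and the Dia list held 33138. H3K4me2 of at least 1 of the 4 muscles was present at 1211 regions (38.3%, against 69.1%). At 322 regions (10.2%) H3K4me2 was called in Sol and in none of the other muscles. This pattern was met at 2.24% of all merged regions, 1.02% of those of EDL alone and 1.26% of those of Dia alone, and at 8.40% of those of Sol and Dia only. Sol H3K4me2 in any pattern was present at 43.0% of the regions of Sol and Dia only. The other single-muscle sets also had H3K4me2 most often in their own muscle, with EDL H3K4me2 at 46.7% of EDL alone and Dia H3K4me2 at 28.9% of Dia alone. Each muscle's list was a single call over both replicates, so these shares carry counting intervals and no test over samples.

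Where Sol H3K4me2 was present, its level ranged from 2.43 to 11.82 in replicate 1 with a median of 5.47, and from 2.33 to 11.86 in replicate 2 with a median of 5.51. The median region stood at percentile 28.9 of the Sol H3K4me2 list. Each level was taken over the whole peak of its own list, so levels of the 2 marks are not comparable. Rank within a list also reflects peak width. The Hoxb8 region lay -1706 bp from the start of this homeobox gene of body axis patterning. Its H3K27ac levels of 2.53 and 3.12 were among the lowest, at percentile 0.0746 of the Sol H3K27ac list. The H3K4me2 peak that overlapped it had levels of 9.13 and 9.28, at percentile 94.4 of its list. A difference in strength between the marks was not tested. EDL H3K4me2 was also called there. The Sim1 region was centred 946 bp downstream of the start of this bHLH-PAS transcription factor gene. There both marks ranked high, with H3K27ac of 8.32 and 8.15 (percentile 79.5) and H3K4me2 of 9.98 and 10.08 (percentile 99.1). H3K4me2 of EDL, Quad and Dia and open chromatin of control Quad were also called at the Sim1 region.

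**Figure D2:**
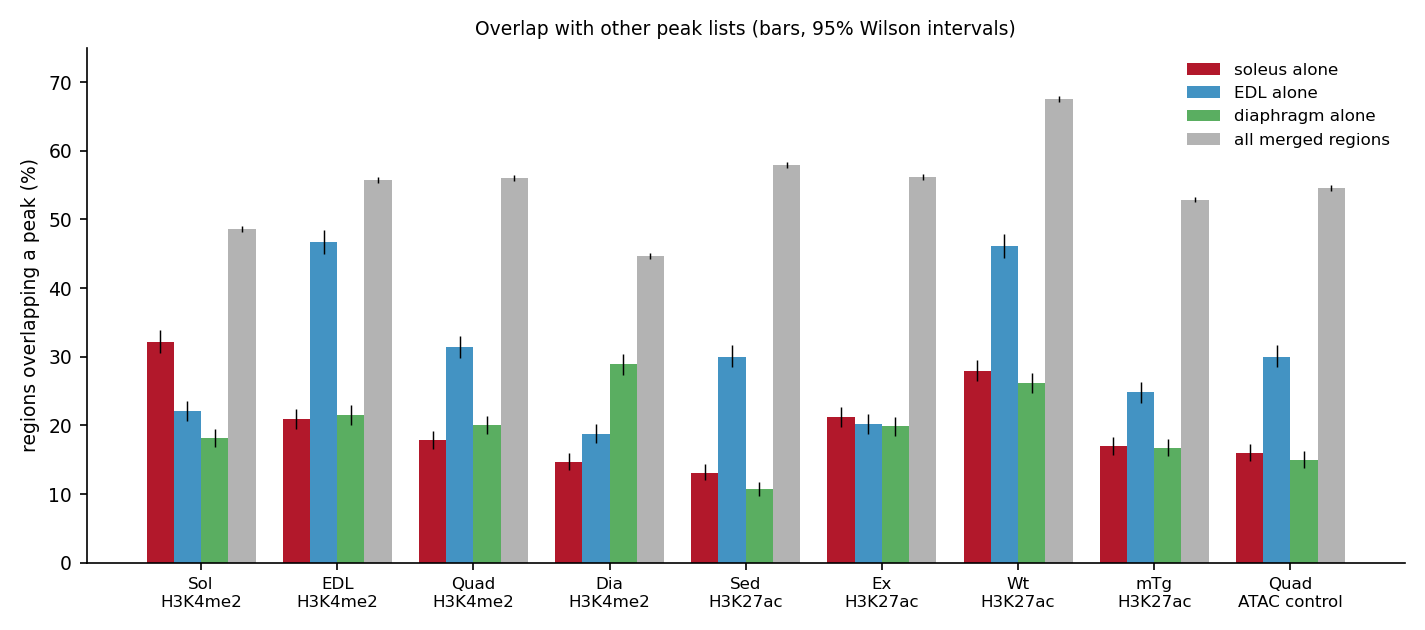
Share of regions (y axis, %) that overlapped a peak of each list on the x axis, for regions of soleus alone (red), EDL alone (blue), diaphragm alone (green) and all merged regions (grey), with 95% Wilson intervals. Soleus H3K4me2 is the list with the highest bar for soleus-alone regions (32.2%), and in every list the grey bar of all merged regions is the tallest.

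MED1 was rarely found at regions of Sol alone. A Sol MED1 peak overlapped 14 (0.443%, against 3.93% of all merged regions), a Dia MED1 peak 8 (against 2.87%), a Quad MED1 peak 7 (against 3.27%) and an EDL MED1 peak 2 (against 0.818%). The share with Sol MED1 was 0.477% at regions of EDL alone and 0.492% at those of Dia alone. These values lay close together. MED1 was 1 library a muscle, and the Sol list held 4070 peaks.

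Of the 14 regions with Sol MED1, 6 also carried Sol H3K4me2. The highest MED1 peak score, a depth-scaled tag count, was 16.4 at an intergenic region near Prss16, with H3K27ac levels of 6.11 and 5.64 and H3K4me2 levels of 9.08 and 9.06. A Quad MED1 peak and H3K4me2 of all 4 muscles were present there too. The region near Opn1sw, the short-wave opsin gene, followed with a MED1 score of 11.7 and H3K27ac levels of 5.27 and 5.51. The intronic region of Hn1 scored 8.77 with higher H3K27ac, 7.46 and 7.38, and was also in the Sed, Wt and Ex lists of Quad. The intronic region of Pdlim5, which encodes a Z-disc scaffold of the PDZ-LIM family, scored 8.19 with H3K27ac of 4.79 and 5.08. The regions near Hdac7, a class IIa histone deacetylase, and Chd9, a chromatin remodeller, tied at a score of 7.02, with H3K27ac of 5.10 and 5.30 at Hdac7 and 5.32 and 5.09 at Chd9. The MED1 scores of these 6 regions did not follow the order of their H3K27ac levels, which was highest at Hn1. Quad MED1 and H3K4me2 of all 4 muscles were also present at Opn1sw. Hn1 had Dia MED1 and H3K4me2 of all 4 muscles, and Hdac7 H3K4me2 of all 4. At Pdlim5 H3K4me2 of EDL, Quad and Sol was called, and at Chd9 that of Quad only.

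Sol NFAT peaks overlapped 60 regions (1.90%, against 3.3% of all merged regions, 1.43% for EDL alone and 2.00% for Dia alone). The Sol NFAT list was long, with 39661 peaks, and the Quad NFAT list short, with 485. No region of Sol alone overlapped a Quad NFAT peak (0 of 3158, against 0.0504% of all merged regions). Open chromatin of control Quad was called at 505 regions (16.0%, against 54.5%), beside 30.0% of EDL alone, 17.3% of Quad alone and 488 of the 3255 regions of Dia alone.

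The Quad list used by the rule was 1 of several wild type Quad lists, and the others did contain some of the regions. A Sed H3K27ac peak overlapped 415 (13.1%, against 57.9% of all merged regions) and a Wt peak 883 (28.0%, against 67.5%). Together these sedentary wild type lists held 1071 regions (33.9%, against 75.2%), of which 227 were in both (7.19%, against 50.3%). For regions of EDL alone the corresponding shares were 30.0% in Sed and 46.1% in Wt, and for Dia alone 10.7% and 26.1%. The Wt list was the longest, with 49010 peaks against 34031 in Sed, and its input was the shallowest of the muscle H3K27ac inputs used here at 7721156 tags. The part of depth in these shares was not tested. Absence from the Quad list is therefore absence from 1 call of that muscle, and 2087 regions were in neither Sed nor Wt.

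After wheel running 669 regions (21.2%, against 56.1%) overlapped an Ex H3K27ac peak, and in the transgenic muscle 535 (16.9%, against 52.9%) overlapped an mTg peak. Regions present in Ex and absent from Sed numbered 468 (14.8%, against 11.6% of all merged regions), and the reverse 214 (6.78%, against 13.4%). The Ex and Sed lists were of similar length, 34572 and 34031. Regions of Dia alone had a like balance, with 14.7% in Ex and absent from Sed and 5.59% the reverse, while for EDL alone it was turned round, with 10.9% and 20.8%. For Quad alone the shares were 17.8% and 12.6%, so the share gained in Ex was higher there than for Sol alone. In the transgenic comparison 253 regions (8.01%, against 7.63%) were in mTg and absent from Wt, and 601 (19.0%, against 22.2%) in Wt and absent from mTg. Here the lists differed in length, with 36169 peaks in mTg against 49010 in Wt. A total of 418 regions (13.2%, against 7.39%) were in Ex or mTg and in neither control list. The shares were 11.8% for EDL alone and 14.1% for Dia alone, so the value of Sol regions lay between those of the other single-muscle sets. At least 1 of the 4 lists held 1489 regions (47.2%, against 82.6%), and none held 1669.

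The other lists held more of the regions with a high level in Sol. When the 3158 regions were divided into quartiles by level, Sol H3K4me2 was present at 24.8%, 30.8%, 34.3% and 38.9% from lowest to highest. Wt H3K27ac was present at 12.8%, 30.0%, 32.3% and 36.8%, and Sed H3K27ac at 6.20%, 13.4%, 14.8% and 18.1%. For Ex the values were 12.8%, 21.2%, 25.4% and 25.3%, and for mTg 8.23%, 16.1%, 19.1% and 24.3%. The share with H3K4me2 in Sol and in no other muscle moved less, from 9.49% in the lowest to 11.7% in the highest quartile. Median width rose alongside, from 630 bp in the lowest to 1596 bp in the highest quartile. Within widths of up to 700 bp, 700 to 1500 bp and 1500 to 5000 bp, Sol H3K4me2 was present at 25.2%, 34.9% and 33.0% of the regions of Sol alone, and at 19.2%, 34.0% and 55.3% of all merged regions. The shortfall against all merged regions was thus seen in the widest class. For Wt H3K27ac the shares were 17.0%, 30.8% and 33.3%, against 27.9%, 47.6% and 79.4%, below all merged regions in each class.

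**Figure D3:**
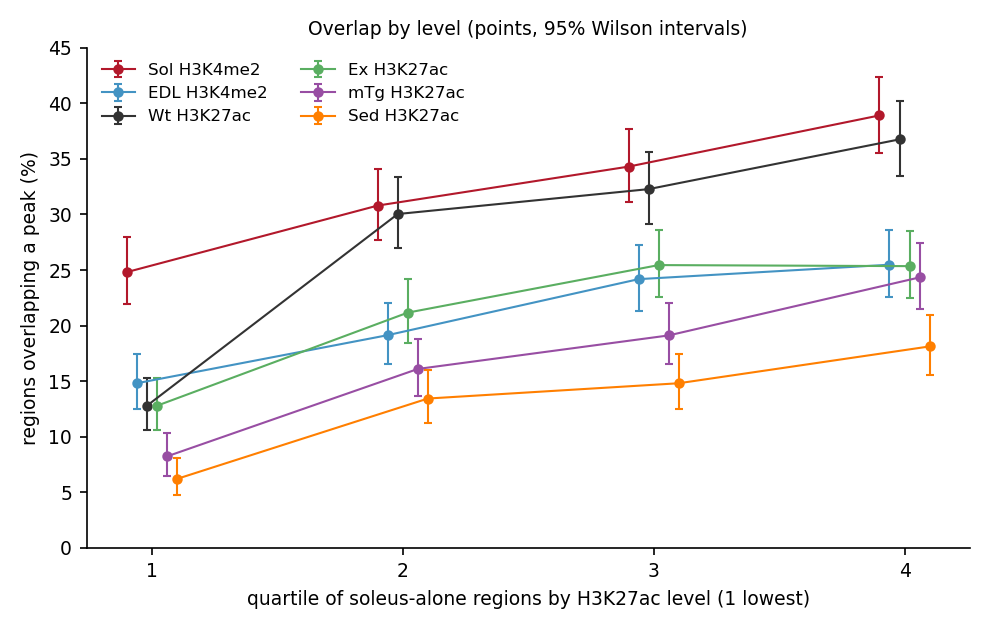
Share of the regions of soleus alone that overlapped a peak (y axis, %) in each quartile by H3K27ac level (x axis, 1 lowest), with 95% Wilson intervals, for 6 lists. All 6 shares are lowest in quartile 1, and soleus H3K4me2 climbs from 24.8% to 38.9%.

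Genes that define slow fibers were the nearest genes of 8 regions at 5 of the 18 genes of that list. The count was 3 for EDL alone and 4 for Dia alone, from similar numbers of regions. These 8 made up 0.253% of the regions of Sol alone, and the list made up 0.158% of all Sol peaks, of which 54 were nearest to 17 of its genes. Most slow genes with Sol acetylation thus had it in regions shared with another muscle. Tnnt1, Tnni1, Tnnc1, Myl2 and Myl3, the slow troponin and myosin light chain genes, had 1 to 3 Sol peaks each and no region of Sol alone.

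Myoz2, encoding the Z-disc protein calsarcin 1 of slow and cardiac muscle, had 4 of the 8. The region in its intron (chr3:123016775-123021539) had levels of 8.16 and 7.84, against 5.94 in the input, and the nearest peak of another muscle was 4405 bp away in Dia. Neither H3K4me2 of Sol nor of EDL was called there. A second region, in an intron of the neighbour Synpo2, measured 6.17 and 5.98 and contains the Myoz2 window printed above. Of the 4, 3 formed a single group with gaps of at most 12.5 kb.
The region near Myh7b, which encodes a slow-type myosin heavy chain and hosts a microRNA, lay at -4916 bp from its start with levels of 7.28 and 7.09. Its H3K4me2 levels were 5.77 and 5.50. Others, outside the rule for named regions and chosen after their values were seen, were weak. The region near Sln (sarcolipin, a regulator of calcium pumps) had levels of 4.41 and 4.88, and that near Myh7 3.23 and 2.72.

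Fast fiber genes were nearest to 2 regions (0.0633%, against 0.0907% of all Sol peaks, with 5 regions for EDL alone and 1 for Dia alone), at Casq1 (4.17 and 3.95) and Myh2 (4.27 and 3.44), both below percentile 3 of the Sol list. Oxidative and respiratory genes were nearest to 1 region, at the myoglobin gene Mb (5.35 and 5.62), against 11 for Dia alone and 0 for EDL alone. This was 0.0317%, against 0.0966% of all Sol peaks. Fatty acid and ketone metabolism had 6 regions at Lpl, Acaa2 and Dgat2, against 7 and 5 in EDL alone and Dia alone, or 0.190% against 0.237% of all Sol peaks. The highest of these, near the lipoprotein lipase gene Lpl, had levels of 6.91 and 6.73. Hox and limb identity genes had 4, against 8 and 15, or 0.127% against 0.132% of all Sol peaks. Stretch and growth genes had 1, at Smad3 (5.01 and 5.18), or 0.0317% against 0.111%.

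Genes of the neuromuscular junction were nearest to 9 regions at 6 of 13 genes, against 2 for EDL alone and 2 for Dia alone. They made up 0.285% of the regions of Sol alone and 0.132% of all Sol peaks. Musk, the muscle-specific kinase that clusters acetylcholine receptors, had 4. Its highest, in an intron (chr4:58309672-58312912), had levels of 7.80 and 7.46 against 4.68 in the input. Another intronic region measured 6.51 and 6.38, and one at -10395 bp from the start 6.05 and 6.39. That intronic region was also in the Wt and Ex lists of Quad, and the upstream one in Wt, Ex and mTg. The highest was in none of the Sed, Wt, Ex and mTg lists. The Musk gene had 12 H3K27ac peaks in Sol, 7 in EDL, 13 in Quad and 5 in Dia, so its regions of Sol alone stood among many shared ones.
The Utrn region, at the promoter of utrophin, the autosomal relative of dystrophin enriched at the synapse, had levels of 5.58 and 5.93. It was also in the Wt list of Quad. The remaining 4, added to complete the list, were at Chrng (5.63 and 5.02), Chrnd (3.59 and 3.56), Colq (5.10 and 5.10) and Rapsn (4.83 and 4.92), which encode receptor subunits gamma and delta, the collagen tail of acetylcholinesterase and rapsyn. Chrng and Chrnd had 1 Sol peak each and 0 in the H3K27ac lists of EDL, Quad, Dia, Sed, Ex, Wt and mTg.

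Regulators of fiber type were nearest to 26 regions at 14 of 36 genes, against 28 for EDL alone and 20 for Dia alone, or 0.823% against 0.749% of all Sol peaks. Mef2c, a calcium-responsive factor of muscle genes, had the highest, with levels of 6.48 and 6.66 and H3K4me2 of 5.20 and 4.96. Prox1, a homeobox factor of slow fibers, had a region with levels of 5.99 and 5.82. Esrrg, the estrogen-related receptor of oxidative muscle, had one at 6.13 and 5.67, among 5 regions of Sol alone. Its H3K27ac peaks numbered 19 in Sol, 12 in EDL, 11 in Quad and 12 in Dia. Thrb, a thyroid hormone receptor, had 3 regions, the highest with levels of 5.88 and 5.91.

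**Figure D4:**
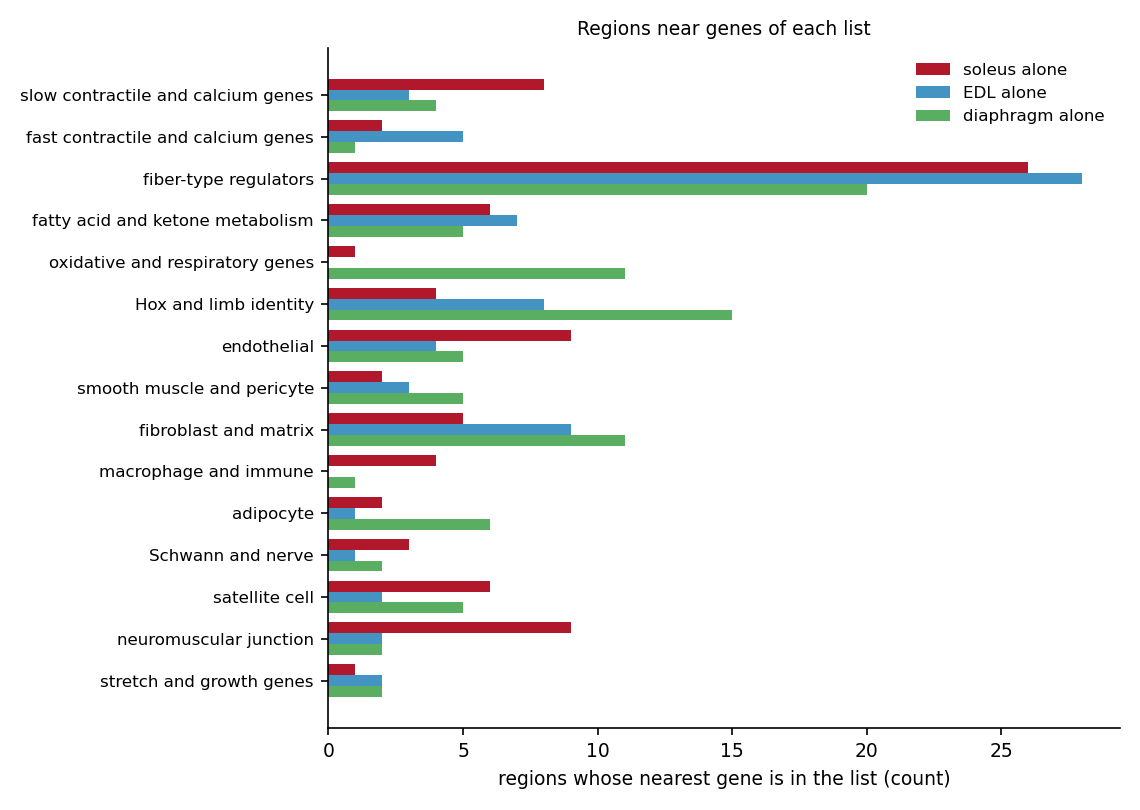
Number of regions (x axis) whose nearest gene belongs to each list shown (y axis), for regions of soleus alone (red, 3158), EDL alone (blue, 3144) and diaphragm alone (green, 3255). Soleus alone has 8 regions near slow genes and 9 near neuromuscular junction genes, against 3 and 2 for EDL alone, and 26 near regulators of fiber type against 28.

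Markers of the other cells of muscle were nearest to some of the regions. Endothelial genes had 9 regions at 7 of 18 genes (4 for EDL alone, 5 for Dia alone), or 0.285%, beside 89 of all 34173 Sol peaks, a similar share, the highest near Sox17 (6.73 and 6.31) and Kdr (6.02 and 6.12). Satellite cell genes had 6 (2 and 5), fibroblast and matrix genes 5 (9 and 11), macrophage and immune genes 4 (0 and 1), Schwann and nerve genes 3 (1 and 2), adipocyte genes 2 (1 and 6) and smooth muscle and pericyte genes 2 (3 and 5). As shares against all Sol peaks these were 0.190% and 0.0849% for satellite cell, 0.158% and 0.266% for fibroblast, 0.127% and 0.0585% for macrophage and 0.0950% and 0.0527% for Schwann genes. For adipocyte genes they were 0.0633% and 0.0468%, and for smooth muscle genes 0.0633% and 0.111%. The 4 macrophage regions were at Mrc1 (5.77 and 6.24), Itgam (4.64 and 5.07), Adgre1 (4.52 and 5.18) and Spi1 (3.97 and 4.62), each with the higher level in replicate 2. Over all 3158 regions replicate 1 was higher at 1457 (46.1%). Quad lists held these macrophage regions too, with Mrc1 in Wt, Itgam in Ex, Adgre1 in Sed, Wt, Ex and mTg, and Spi1 in Sed, Wt and Ex. The part of other cell types in the regions of Sol alone was not tested.

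Of the 10 regions of highest level, 1 was near a gene of the slow list, Myoz2. The highest was centred at -4937 bp from the start of Sdhaf4, an assembly factor of succinate dehydrogenase (chr1:24008078-24013076), with levels of 8.59 and 8.57, an input of 6.09 and H3K4me2 of 7.30 and 7.51. At 4999 bp it was also the widest of all. An intronic region of Ift81, a gene of transport in cilia, followed with 8.45 and 8.34. An intergenic region near Gm9733 had 8.45 and 8.15, and the Sim1 region came next. Cyfip2, a regulator of actin assembly, had an intronic region at 8.30 and 7.94, and the gene had 1 peak each in Sol and Dia and 0 in the EDL, Quad, Sed, Ex, Wt and mTg lists. The Myoz2 region was the sixth. Hnrnpa3, 1500017E21Rik, Eea1 and 2310008N11Rik completed the 10, with mean levels from 7.79 to 7.94. Of these 10 regions, Sol H3K4me2 was called at 3, those of Sdhaf4, Sim1 and 1500017E21Rik. After the Sdhaf4 region the widest were those of Sim1 (4942 bp), 5930412G12Rik (4927 bp), 1810011O10Rik (4872 bp) and Myoz2 (4765 bp).

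Some genes had several of the regions. Khdrbs3, an RNA-binding protein of the STAR family, had 7, with mean levels from 4.26 to 6.43, and its H3K27ac peaks numbered 12 in Sol against 4 in EDL, 5 in Quad and 6 in Dia. Setbp1 had 6, and Gm5086, 2010111I01Rik and Psmg4 were taken from the 6 genes with 5. The regions were mostly solitary all the same. With regions no more than 12.5 kb apart taken as a group, 2742 stood alone, 171 groups held 2, 22 held 3 and 2 held 4, at Nek10 and Rassf2.

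The authors' lists of regions with different acetylation in the transgenic and exercised Quad touched few of the regions of Sol alone. A hyperacetylated mTg region overlapped 39 (1.23%, against 2.71% of all merged regions) and a hypoacetylated one 7 (0.222%, against 1.54%). A hyperacetylated Ex region overlapped 24 (0.760%, against 0.521%) and a hypoacetylated one 5 (0.158%, against 4.28%). The regions of EDL alone gave 2.64%, 1.69%, 0.223% and 2.96% in the same order, and those of Dia alone 2.30%, 0.276%, 0.707% and 0.399%. Those of Quad alone gave 1.16%, 1.48%, 0.777% and 1.61%. A direct test of these differences between sets was not made. The listed regions shared a median of 833 bp with the Sol region in the mTg hyperacetylated list and 838 bp in the Ex hyperacetylated list, and as little as 79 bp.

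The levels of the 4 libraries behind each list were compared with limma. Because the lists hold only regions chosen for differing, the test is a description and not independent evidence. Variance was partly or fully shared across the regions of a list, so p followed the mean difference more than a region's own replicates. On the hypoacetylated Ex list, regions of Sol alone had the same SE of 0.21 throughout. Of all 1828 hyperacetylated mTg regions 100% had an adjusted p under 0.05, as did 100% of the 844 hypoacetylated ones, and the groups did not overlap in 100% of either. All 39 and 7 regions at the regions of Sol alone passed likewise. At the 39 the mTg minus Wt difference ran from 0.42 to 1.44 with a median of 0.69, and at the 7 from -0.59 to -0.39 with a median of -0.44. The medians over the whole lists were 0.74 and -0.63.

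The largest difference was in the intronic region of D930015E06Rik, where mTg levels were 8.04 and 7.99 and Wt levels 6.62 and 6.53. The difference was 1.44 ± 0.12 (SE, n = 2 libraries a group, limma adjusted p = 7.02e-10). The Sol region shared 969 bp with this listed region of 4590 bp and contains the window printed above. Its levels of 4.63 and 4.66 in the Sol libraries belong to another interval and list, and are not comparable with these. At Angpt1, a ligand of the endothelial receptor Tie2, mTg had 7.18 and 7.16 and Wt 6.04 and 5.90, a difference of 1.20 ± 0.12. At 4930578M01Rik the values were 8.21 and 8.03 against 7.14 and 6.88, a difference of 1.11 ± 0.13. In each of these the lower mTg library was above the higher Wt library.
The region of Vwa8, a mitochondrial AAA ATPase, had 9.17 and 9.06 in mTg and 8.05 and 8.06 in Wt. The Sol libraries had H3K4me2 levels of 8.95 and 8.99 and H3K27ac levels of 4.42 and 4.83 there. These come from separate lists and are not comparable. At Mrgprg the levels were 5.89 and 6.03 against 4.91 and 4.96, and 128 bp were shared with the Sol region. The promoter of Chrna2, a nicotinic acetylcholine receptor subunit, had 5.95 and 5.86 in mTg and 5.02 and 4.84 in Wt, a difference of 0.97 ± 0.13 (limma adjusted p = 2.20e-07). Chrna2 had 2 H3K27ac peaks in Sol, 2 in mTg and 0 in EDL, Quad, Dia, Sed, Ex and Wt, and both its Sol regions overlapped a hyperacetylated mTg region.
The intronic Thrb region measured 7.11 and 6.96 in mTg and 6.32 and 6.28 in Wt, a difference of 0.74 ± 0.12. A further region of Thrb and 1 each of Esrrg, Smyd1 and Nampt were also on the list, and are named after their values were seen.

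Lower acetylation in mTg was met at Adamtsl3, a matrix glycoprotein gene, with 5.14 and 5.14 against 5.80 and 5.66, a difference of -0.59 ± 0.13 (limma adjusted p = 0.000237). At 2210417A02Rik mTg had 4.74 and 5.16 and Wt 5.57 and 5.46, and at Igf2bp3, an RNA-binding protein of fetal tissues, 4.30 and 4.41 against 4.79 and 4.81. When each library was centred on its median over the list, which removes the shared difference, 6 of the 46 calls were left. Over the whole lists 234 of 1828 hyperacetylated and 35 of 844 hypoacetylated regions were left. The sign turned at Thrb, Adamtsl3, 2210417A02Rik and Igf2bp3. Without mTg replicate 1 the difference at 2210417A02Rik was -0.35 with an adjusted p of 0.0567 in limma.

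In the exercised Quad 99.7% of the 382 hyperacetylated and 99.7% of the 2280 hypoacetylated regions had a limma adjusted p under 0.05, and all 24 and 5 at the regions of Sol alone did. The Ex minus Sed difference at the 24 ran from 0.51 to 0.74 with a median of 0.59, also the rounded median of the whole list, and the medians of the 5 and of the whole lower list were -0.59 and -0.76. Actr2, a subunit of the Arp2/3 complex of actin branching, had Ex levels of 7.06 and 7.42 and Sed levels of 6.48 and 6.52, a difference of 0.74 ± 0.17 (limma adjusted p = 0.000934). At Apbb1ip, an adaptor of integrin activation in blood cells, Ex had 8.10 and 8.66 and Sed 7.47 and 7.81. This listed region was 7030 bp wide and shared 79 bp with the Sol region.
At Dnajc13, a co-chaperone of endosomes, Ex had 7.18 and 7.41 and Sed 6.53 and 6.63. The Musk region upstream of the gene rose from 5.63 and 5.77 in Sed to 6.18 and 6.38 in Ex, a difference of 0.57 ± 0.16. Its Sol region overlapped no Sed peak but did overlap a Wt peak. Among the 5 that were lower in Ex, Cep57l1 had 7.94 and 7.77 against 8.72 and 8.96, Clvs1 9.28 and 8.66 against 10.15 and 9.65, and the promoter of Bcas3os1 6.00 and 5.93 against 6.40 and 6.70. Igf2bp3 was on the lower lists of both comparisons.
With 1 library left out, 1 group has a single library, which is taken to vary like the other group. Without Sed replicate 1 calls were lost over the whole hyperacetylated Ex list, and not only at the regions of Sol alone. In that fit the differences at Actr2, Apbb1ip, Dnajc13 and Musk were 0.72, 0.57, 0.67 and 0.50. With all libraries they were 0.74, 0.74, 0.72 and 0.57. Leaving out Sed replicate 2 also lowered the calls over that whole list. Centring on the library medians left 0 of the 29 calls, and 0 over both whole Ex lists. It turned the sign at Musk and Bcas3os1. In the fit without Ex replicate 2 the difference at Clvs1 was -0.62 (limma adjusted p = 0.0605) and that at Bcas3os1 -0.56 (limma adjusted p = 0.0798), against -0.93 and -0.59 with all libraries.

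**Figure D5:**
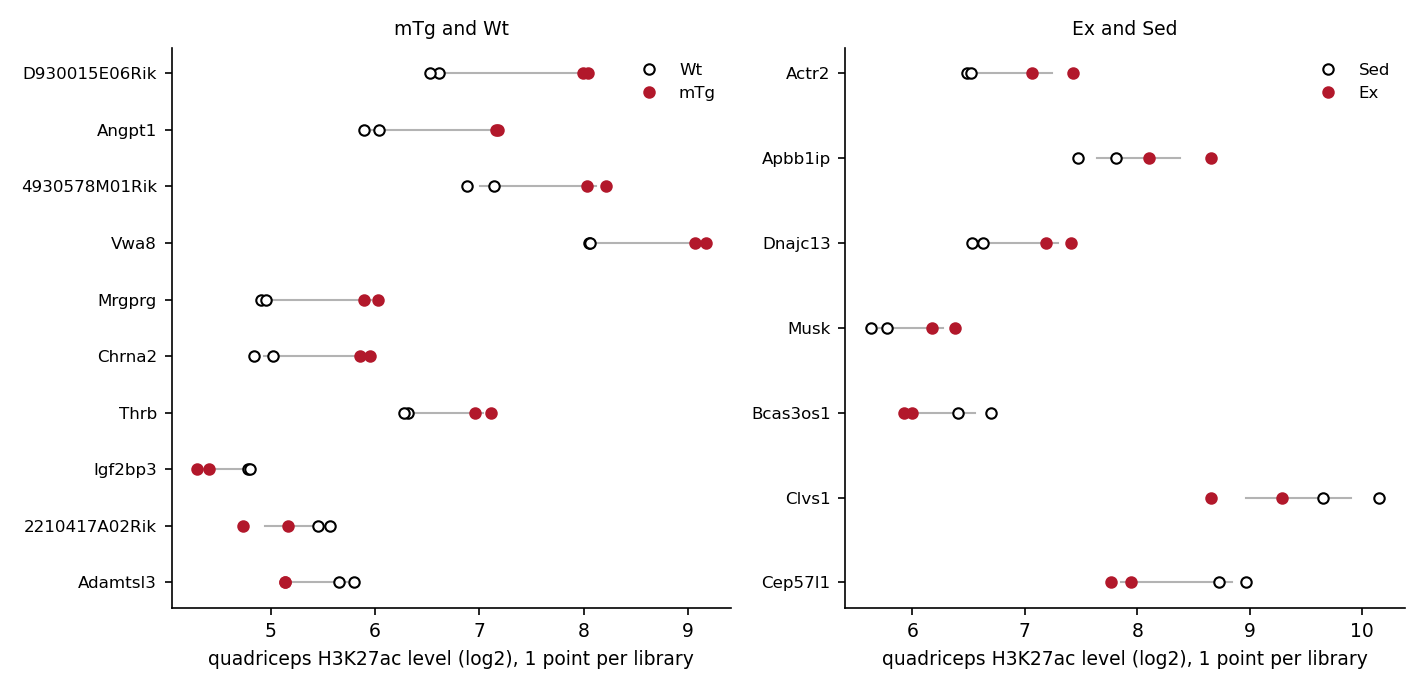
Quadriceps H3K27ac level (x axis, log2, 1 point per library, grey line between group means) at listed regions that overlap regions of soleus alone, named by nearest gene. Left, mTg (red) and Wt (open); right, Ex (red) and Sed (open). In each row both red points lie on the same side of both open points, to the right in the upper and to the left in the lower rows.

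Of the 7 motifs searched in the central 300 bases, TCAAGGTCA, bound by estrogen-related receptors, stood furthest in ratio from its share in all merged regions. In the central 300 bases, the NFAT core TGGAAA was present in 28.0% of the regions of Sol alone and 26.0% of all merged regions, and the half-site AGGTCA in 21.6% and 20.2%. The E-box CAGCTG was present in 18.5% and 18.9%, the TEAD core GGAATG in 17.6% and 16.2%, and the AP-1 sites TGAGTCA or TGACTCA in 7.44% and 6.86%. The MEF2 motif was present in 1.49% and 1.33%. The sequence TCAAGGTCA, which contains the half-site, was found in 41 regions (1.30%, interval 0.958 to 1.76) against 0.865% of all merged regions. It was present in 1.11% of those of Dia alone, 1.49% of those of Sol and Dia only, 0.763% of EDL alone and 0.748% of Quad alone. In the central 1000 bases it was present in 3.99% of the regions of Sol alone and 2.97% of all merged regions. Over whole regions the order was turned round, with 3.99% against 7.66% for this sequence and 53.4% against 70.6% for the half-site, and the median widths were 960 and 1858 bp. Median GC content was 46.3% against 48.3%, and the regions present in all 4 muscles had 50.7%. Both strands were searched in every case.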

How the data were processed

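H3K27ac and H3K4me2 ChIP-seq of mouse muscle was deposited as peak lists, 1 per group of 2 libraries. The authors aligned reads to mm10 with Bowtie (1.2 in the processing notes of the submitters), kept uniquely mapped reads and 1 tag per position, and called peaks with HOMER, which ran DESeq2 on both replicates against input with a 2-fold and FDR 0.05 limit. The deposited levels are log2 values, taken here as regularised log counts made by the authors within each list, so no level was compared between lists. Deposited peak scores are depth-scaled tag counts over the pooled replicates, and the adjusted p-values and log2 enrichments over input are those the authors' caller gave. ATAC-seq signal is the deposited normalized tag count of 1 list over 3 libraries (FDR 0.001), and only its positions were used. The differential lists were balanced by quantile normalization by the authors, and their columns of fold changes and p-values between conditions were not used. H3K27ac libraries held 11658746 to 24195147 tags. Intervals cover counting error only, and tags carry no molecular identifiers.

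Lists were merged with an equivalent of bedtools 2.31.1 merge, and shares used an overlap of at least 1 bp. Levels in the differential lists were compared with limma 3.58.1 (R 4.3.3), two-sided, Benjamini-Hochberg over each whole list, with no covariate. On simulated data with planted changes of 1 log2 unit the test recovered 91.5% (mTg hyperacetylated), 94.5% (mTg hypoacetylated), 93.7% (Ex hyperacetylated) and 63% (Ex hypoacetylated) of them. False calls among unchanged regions were 0.491%, 1.40%, 1.57% and 0.0962%. Changes were planted in both directions in part of each list, whereas the real regions were all chosen for 1 direction. The median differences at the regions of Sol alone were smaller than 1 log2 unit, so these rates do not carry over to them. The regions and gene lists were chosen with earlier results of these data known. Named were the 10 regions of highest level, the 5 widest, the 5 of highest MED1 score, the 6 of largest difference in the hyperacetylated mTg list and 3 in each other differential list, up to 4 per gene list, and the 5 genes with most regions, with ties between genes broken by level. Sequences came from RefSeq GRCm38.p6, on which all 51588 merged regions lay within chromosome ends. Alternatives were a stricter caller p, 4-fold enrichment, a 1 kb gap, equal numbers of peaks, removal of regions in Sed or Wt, overlap of 50% of the length, wider motif windows, centring, a replicate block and leaving out libraries. Leaving out the Dia list, because of the interchanged Dia tag totals, and a crossed block were added after the data were seen. A few items are not reported here.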

Additional observations from a re-analysis of the deposited data

How the results depend on the processing

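Regions of Sol alone numbered 170 with a caller adjusted p under 0.001 and 2087 without regions in the Sed or Wt lists. With the caller limit of 0.001 the share with Sol H3K4me2 was 36.5%, with Sol MED1 1.18%, in mTg 21.2%, with a hyperacetylated mTg region 0.588% and with a hypoacetylated Ex region 0%. With equal numbers of top-scoring peaks, Sol H3K4me2 was 35.2%, mTg 21.4% and Wt 34.8%, and with 4-fold enrichment Wt was 26.4%. Without regions in Sed or Wt, Sol H3K4me2 was 28.1%, mTg 10.6% and hypoacetylated Ex 0%. With overlap of 50% of the length, Sol H3K4me2 was 29.6%, mTg 11.3% and Wt 17.6%. Without the Dia list in the rule, the promoter share was 2.95%, Sol H3K4me2 34.8%, mTg 20.8%, Wt 32.2% and hyperacetylated mTg 2.06%. Wider windows raise every motif share, since they hold more letters.

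Centring each library on its median left 6 of 46 mTg calls and 0 of 29 Ex calls. Over the whole lists it left 234 of 1828 hyperacetylated and 35 of 844 hypoacetylated mTg regions. For Ex it left 0 of 382 and 0 of 2280. A list chosen for 1 direction loses its shared difference by construction when centred. The centred difference turned at Thrb (-0.064), Igf2bp3 (0.22), 2210417A02Rik (0.10), Adamtsl3 (0.074), Musk (-0.051) and Bcas3os1 (0.19). Leaving out 1 library gave 44 to 46 mTg calls and 3 to 28 Ex calls. With the replicate block 46 and 29 regions were called, and 46 with crossed numbers. Same-numbered libraries correlated at -0.04 and -0.24 in the mTg lists and 0.14 and 0.11 in the Ex lists, and nothing ties the numbers to shared animals. MED1 and NFAT have no replicate, and each peak list is 1 call.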
